A study of Hydra vulgaris with 2 samples.

Results

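Among the RNAs of *Hydra* extracellular vesicles (EVs), the transcripts examined here are those of the cytochrome oxidase, ATP synthase and cytochrome b genes that are encoded by the mitochondrial DNA. They were chosen by name, as the targets listed under COX, ATP or CYTB in both deposited tables, and a target is 1 listed RNA sequence. There were 6 of them among the 25314 targets of the series: *COX1* (listed as COX1-4), *COX2*, *COX3*, *ATP6*, *ATP8* and *CYTB*. The 7 targets listed under ND and the ribosomal RNA target lsu-rRNA were used for comparison only. The levels of both libraries were known when they were selected on their names, so these levels and the differences between the libraries are given as a description, with no test.

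The series holds a single condition, sequenced in 2 RNA-seq libraries: RNA of EVs that polyps of *Hydra vulgaris*, strain Zurich, shed into their medium while unfed. EVs, small vesicles enclosed by a membrane, were pelleted by ultracentrifugation, treated with proteinase K and then with RNase A to remove RNA outside of them, and the RNA was extracted with a DNase step. The libraries are called replicate A (labelled ExoRNA5000Hy) and replicate B (labelled ExoRNA11250Hy), since the study describes them as biological replicates, and what the numbers in these labels count is not stated. No RNA of whole polyps was analysed here, so the values say what was found in EVs and not what was enriched in them.

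Mitochondria keep a small genome of their own, which in animals encodes core subunits of the respiratory chain and ribosomal RNAs, while all other subunits come from nuclear genes and are imported as proteins. In *Hydra* the mitochondrial DNA is linear, unlike the circular molecule of most animals. *COX1*, *COX2* and *COX3* encode the core subunits of cytochrome c oxidase (complex IV), which passes electrons to oxygen. *CYTB* encodes cytochrome b of the cytochrome b-c1 complex (complex III), and *ATP6* and *ATP8* encode membrane subunits of the ATP synthase (complex V). The ND genes encode subunits of NADH dehydrogenase (complex I).

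Replicate A held 5943550.5 estimated counts and replicate B 3943873. The 5 most abundant targets took 97.0% and 98.7% of them, which left 142638 counts in replicate A and 34881 in replicate B on the other targets listed as mRNA. The mRNAs of the EV proteins annexin B12, an annexin A4-like protein and the tetraspanin CD151 had 34 to 179 counts in replicate A and 4 to 34 in replicate B. Cells hold these mRNAs too, so their presence does not check the labelled source. In bulk RNA of this kind, fewer EVs that carry a transcript and less of it per EV cannot be told apart. The difference in depth, and the different share taken by the most abundant targets, moves with every comparison between the libraries below, and its part in them was not tested.

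*COX1* stood far above the other mitochondrial mRNAs in replicate A. It encodes the catalytic subunit of cytochrome c oxidase, with its heme and copper centres. It had 1685 estimated counts in replicate A and 11 in replicate B. Its level in TPM, a target's share of all transcripts after correction for its length, was 163 TPM in replicate A and 1.69 TPM in replicate B, a mean of 82.5 ± 114 TPM (SD, n = 2 libraries). The exact 95% Poisson interval of the level ran from 156 to 171 TPM in replicate A and from 0.846 to 3.03 TPM in replicate B. Such intervals cover counting error only, since sequenced reads are not independent molecules. By TPM *COX1* ranked 20 among all targets in replicate A and 431 in replicate B. Leaving aside the 5 most abundant targets of all, 9 mRNA targets were above it in replicate A and 230 in replicate B.

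The other core subunits of the oxidase followed at a distance. *COX2*, which carries the copper centre that receives electrons from cytochrome c, had 86 counts and 18.6 TPM in replicate A and 0 counts in replicate B. A target of this length with 3 counts would stand at 1.03 TPM in replicate B, and the exact 95% upper limit for a count of 0 was 1.27 TPM. *COX3*, the third core subunit, had 92 counts and 19.0 TPM in replicate A, and 3 counts and 0.987 TPM in replicate B. Of all counts on the 6 genes, the COX targets took 94.2% in replicate A and 14 of 15 counts in replicate B.

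The subunits of the ATP synthase were lower. *ATP6*, which forms the proton path of the enzyme's membrane part, had 53 counts in replicate A and 1 in replicate B, or 12.5 and 0.375 TPM. *ATP8*, a short membrane subunit of the same part, had 6 counts and 7.29 TPM in replicate A and 0 counts in replicate B. Its listed sequence has only 207 bases, so 1 count stands for 1.21 TPM in replicate A and 3 counts for 6.08 TPM in replicate B. Its absence from replicate B was therefore not distinguishable at this depth from a level close to that in replicate A. *CYTB* had 55 counts and 7.46 TPM in replicate A and 0 counts in replicate B, where 3 counts would stand for 0.647 TPM.

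**Figure D1:**
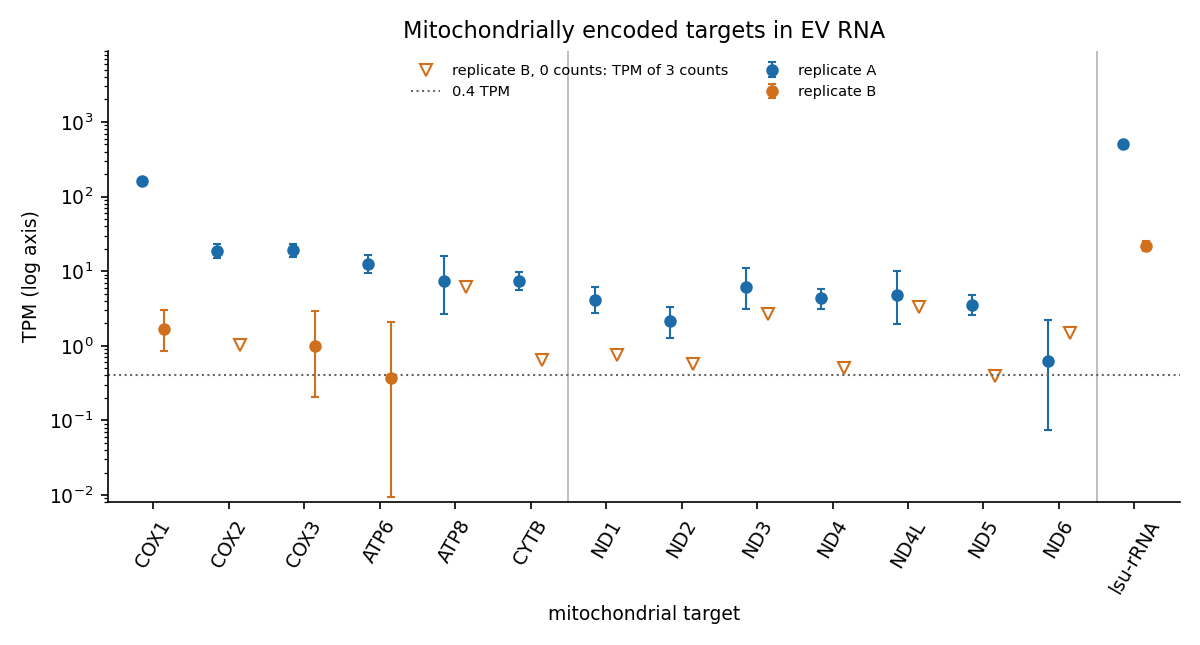
TPM on a log axis of the 6 COX, ATP and CYTB targets, the 7 ND targets and lsu-rRNA in replicate A (blue) and replicate B (orange), with exact 95% Poisson intervals of the counts. Open triangles mark targets with 0 counts in replicate B at the level of 3 counts; *COX1* reached 163 TPM in replicate A and 1.69 TPM in replicate B, and no ND target had a count in replicate B.

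With 0.4 TPM in either library as the threshold, 6 of 6 genes passed, beside 25.3% of all targets. All were above it in replicate A, where 24.4% of all targets were. In replicate B, 2 of 6 were above it, *COX1* and *COX3*, beside 5.16% of all targets. The threshold means different numbers of reads for these genes. A single count on *ATP8* exceeds it in each library, while the single count on *ATP6* in replicate B gave 0.375 TPM and fell just under it. With at least 10 counts required in the same library, 5 of the 6 remained detected, all but *ATP8*, and none of those calls but that of *COX1* could then be made in replicate B.

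In replicate A the order of the levels per length was *COX1*, *COX3*, *COX2*, *ATP6*, *CYTB* and *ATP8*. *COX1* was 8.59 times as high as *COX3*, the next gene (exact 95% interval of the ratio 6.96 to 10.7). *COX3* and *COX2* did not differ beyond counting error, with a ratio of 1.02 (0.754 to 1.39). *COX2* was 1.49 times as high as *ATP6* (1.05 to 2.14), and *ATP6* 1.67 times as high as *CYTB* (1.13 to 2.49). *CYTB* and *ATP8* had a ratio of 1.02, with an interval from 0.441 to 2.91 because of the 6 counts on *ATP8*. By counting error alone, the levels thus stood apart between *COX1*, the pair of *COX3* and *COX2*, *ATP6* and *CYTB*. The lower limits of the last steps were close to 1, and the genes were sorted by the same levels. These intervals compare reads within 1 library and do not include the spread between libraries. In replicate B, with 15 counts on the 6 genes in all, an order of the genes could not be read.

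*COX1* alone took 71.6% of the summed TPM of the 6 genes in replicate A and 55.4% in replicate B. As a share of their counts it took 1685 of 1977 in replicate A, or 85.2% (exact Clopper-Pearson 95% interval 83.6 to 86.8), and 11 of 15 in replicate B, or 73.3% (44.9 to 92.2). The intervals overlap. Per length, *COX1* was 13.1 times the median of the other 5 genes in replicate A. The estimated counts of all 6 genes were whole numbers in each library, to within 1e-06, which means that no read on them was shared with another listed target in a way that split it. Other copies of *COX1* sequence that are not listed as targets could still add reads to it, and the suffix of its listed name was not resolved here.

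The ND genes, the other protein genes of the same genome, were lower still. Their levels in replicate A ranged from 0.617 TPM for *ND6* to 6.19 TPM for *ND3*, with a median of 4.15 TPM, so that every ND gene was below every COX, ATP and CYTB gene there. For *ATP8*, at 7.29 TPM on 6 counts, the interval from 2.67 to 15.9 TPM includes 5 of the 7 ND levels. For *CYTB*, at 7.46 TPM, the interval from 5.62 to 9.71 TPM includes the level of *ND3*. That of *ND3*, on 11 counts, ran from 3.09 to 11.1 TPM, so *CYTB* and *ATP8* were not set apart from it. The 7 ND targets had 148 counts together in replicate A and 0 in replicate B. The 148 counts were 6.96% of the counts on mitochondrial protein genes (5.92 to 8.13). At the ratio between the libraries of the 6 COX, ATP and CYTB genes, 1.12 ND counts would fall into replicate B, so the 0 there was not distinguishable from the same ratio. The listed sequences of all 13 mitochondrial protein targets are whole numbers of codons. The levels are divided by effective length, which is shorter, 118 for the 207 bases of *ATP8* in replicate A.

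Each of the 6 genes had the higher TPM in replicate A. The ratio of TPM in replicate A over replicate B was 96.4 for *COX1*, with an exact 95% interval of 53.7 to 194. For *COX3*, with 3 counts in replicate B, it was 19.3 (6.39 to 95.2), and for *ATP6*, with 1 count, 33.3 (5.72 to 1339). With replicate B set to 3 counts, *COX2* was 18.0-fold and *CYTB* 11.5-fold higher in replicate A. The exact 95% lower limits of these ratios, which include the counting error of replicate A, were 14.3 and 9.07. At the same setting *ATP8* was 1.20-fold higher, with an exact lower limit of 0.706, so its 6 counts leave the direction unresolved. Since both libraries are of 1 condition, the ratios describe the spread between them, whatever step it comes from.

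Among well-covered targets, most were higher in replicate A by TPM. Of the 1114 targets that held 20 counts or more in all, 82.0% had a TPM 4 times as high or more in replicate A, and the median log2 ratio was 2.79. With no minimum, over 13318 targets, those without a count in a library stand at 3 counts. On that scale 5192 were higher and 8126 lower in replicate A, at a median log2 ratio of -0.67. The floor itself makes this direction for many targets with 1 or 2 counts in replicate A, since only 3542 targets had any count in replicate B. No direction of the levels is read from it. Of the 1064 mRNA targets with 20 counts or more the share was 82.6% and the median 2.80. The genes that reached 20 counts, all but *ATP8*, were 5 of 5 past this fold. Each of them reached 20 counts only through replicate A, where it is high, so the minimum itself favours a ratio of this direction and nothing is read from the count. At a fold of 10 they were again 5 of 5, beside 34.0% of all targets. *COX2* and *CYTB* passed there as set to 3 counts in replicate B. The exact lower limits were above 10-fold for *COX1* (53.7) and *COX2* (14.3). They were below it for *COX3* (6.39), *ATP6* (5.72) and *CYTB* (9.07). The median log2 ratio of the 5 genes was 4.27, which is the value of *COX3*, on 3 counts in replicate B. When TPM was rescaled without the 5 most abundant targets and lsu-rRNA, every log2 ratio fell by 0.35. The genes past a fold of 4 were then 5 of 5 beside 67.2% of all targets.

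*COX1* lay at the far end of this distribution. Its log2 ratio of 6.59 exceeded the mRNA median by 3.79, and 4 of 1064 mRNA targets had a higher one. *ATP6* exceeded the median by 2.25, *COX3* by 1.46, *COX2* by at least 1.37 and *CYTB* by at least 0.72. The mRNA targets with a higher ratio were 29 for *ATP6*, 115 for *COX3*, 131 for the bound of *COX2* and 324 for the bound of *CYTB*. Targets without a count in replicate B stand at 3 counts there, which caps the ratio of those with few counts in replicate A. These places and the median thus depend on coverage. Where a minimum of 100 counts was set, 189 mRNA targets were left, at a median of 2.99 and a 95th percentile of 5.59. The 4 above *COX1* were all among them. The intervals of *COX3* and *ATP6* include the median of the mRNA targets. Of the 1114 targets, 20.7% had an estimated count in replicate B that rounded to 0, as *COX2* and *CYTB* did. That share includes targets with fewer counts than the 86 of *COX2* or the 55 of *CYTB*, for which a 0 is easier to reach. It thus does not show how rare a 0 is at the counts of these genes.

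**Figure D2:**
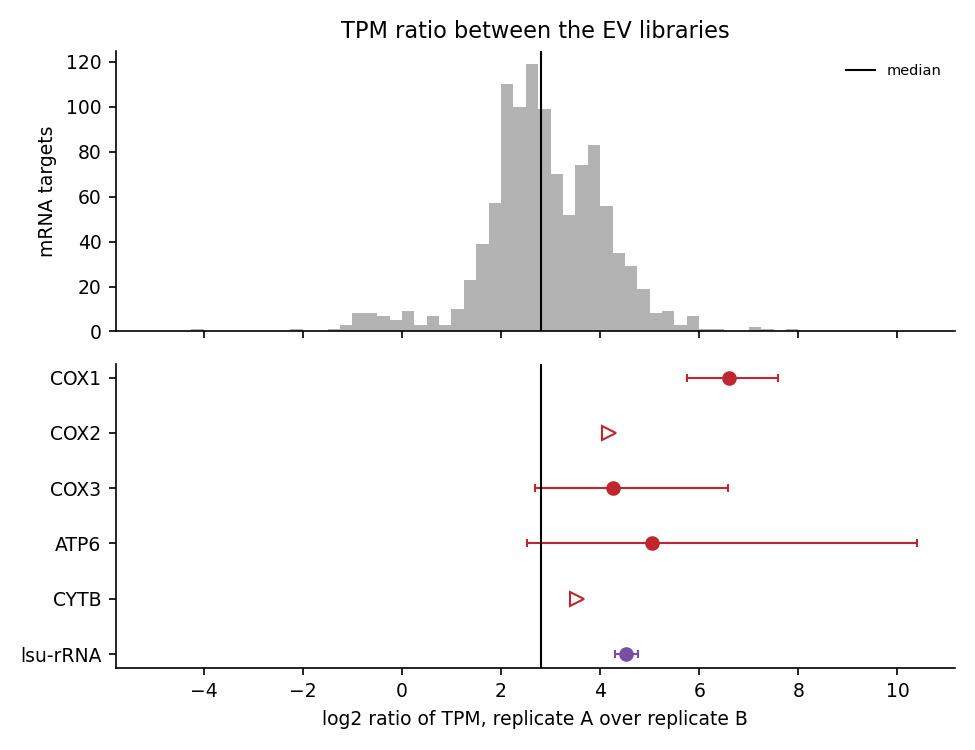
Above, the number of mRNA targets, among those holding 20 counts or more in all, by their log2 ratio of TPM, replicate A over replicate B, with the median of 2.80 as a line. Below, the log2 ratios of 5 COX, ATP and CYTB genes and of lsu-rRNA with exact 95% intervals. Open triangles are genes with 0 counts in replicate B, set to 3 counts there. *COX1* lies at 6.59, and the intervals of *COX3* and *ATP6* reach the median.

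**Figure D3:**
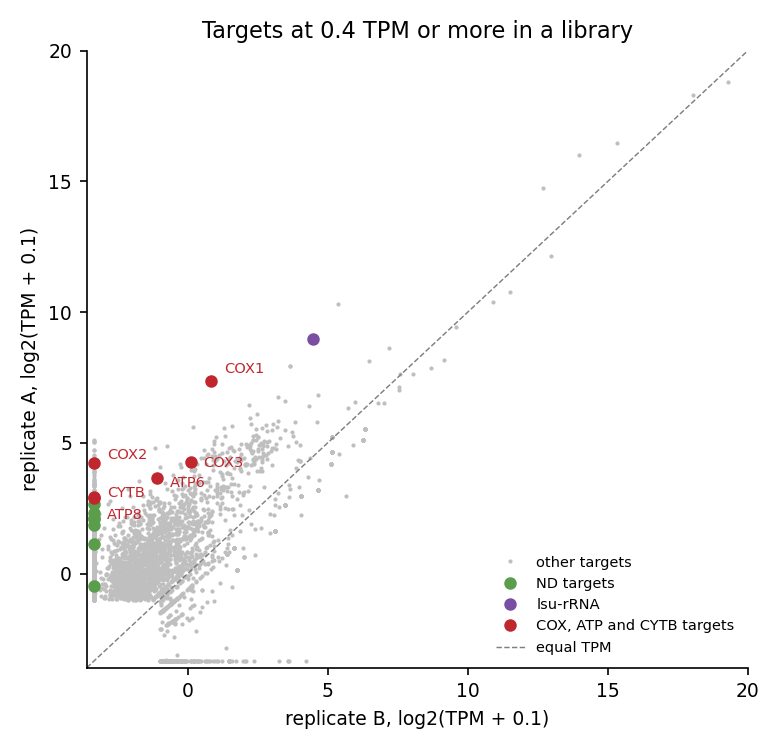
Replicate A (y axis) against replicate B (x axis) as log2(TPM + 0.1), for the 6412 targets that reached 0.4 TPM in either of them, with COX, ATP and CYTB targets in red, ND targets in green and lsu-rRNA in purple. Points above the dashed line are higher in replicate A; *COX2*, *CYTB*, *ATP8* and all ND targets stand at the left edge, with 0 counts in replicate B.

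Shares within a library do not depend on its scaling. The 6 genes took 1977 of 144763 counts on mRNAs and mitochondrial protein genes in replicate A, or 1.37% (exact interval 1.31 to 1.43), once the 5 most abundant targets were left out. In replicate B they took 15 of 34896 counts, or 0.0430% (0.0241 to 0.0709). The intervals do not overlap. If the 1977 counts had followed the mRNA counts, 483 would have been found in replicate B, where there were 15. Relative to the mRNA counts, the 6 genes were 32.2 times as abundant in replicate A as in replicate B (95% interval 19.4 to 53.6, from counting error only). Without *COX1* the other 5 genes were 17.9 times as abundant (6.65 to 47.9), from 4 counts in replicate B.

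The mitochondrial ribosomal RNA was also lower in replicate B, but by less than *COX1*. The target lsu-rRNA, the RNA of the large subunit of the mitochondrial ribosome, had 5824 counts in replicate A and 159 in replicate B, or 507 and 22.0 TPM, a ratio of 23.1 (19.7 to 27.2). A further entry of 901 bases, listed without a gene name between *ND5* and *ND6*, had 7178 and 148 counts, a ratio of 30.5 (25.9 to 36.1). For every 100 counts on lsu-rRNA there were 28.9 on *COX1* in replicate A and 6.92 in replicate B, so that *COX1* was 4.18 times as abundant relative to it in replicate A (2.26 to 7.72). At the ratio of lsu-rRNA, 46.0 *COX1* counts would have been found in replicate B, against the 11 observed. For the other 5 genes together, the same comparison gave 1.99 times, with an interval from 0.734 to 5.41 that includes no difference. The differences between *COX1* and the other genes in this respect were not tested.

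The nuclear genes for subunits of the same complexes were compared next. They were taken by their descriptions from the given part of the study's gene list, which holds its most abundant genes, so that less abundant subunits are missing. All 20 of them were matched to a single target. Together they had 425 counts in replicate A and 77 in replicate B. Only 4 of them reached 20 counts over both libraries, all of the ATP synthase. Of these, 3 were past a fold of 4 in replicate A, beside the 82.0% of all targets. The median log2 ratio of these 4 was 2.76, close to the mRNA median of 2.80. It was below the 4.27 of the mitochondrial genes, which reached 20 counts only through replicate A, and the difference was not tested. Over all 20 nuclear genes, most on few counts, the median was 1.49 and 9 were past a fold of 4. With no minimum of counts, 10.85% of all targets were past it. The 2 shares are not measured alike. Most of those targets had no count in replicate B and stand at 3 counts there, so that with few counts in replicate A they cannot pass. Nearly all of the nuclear genes had a count in replicate B, and they come from the most abundant part of the list.

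The ATP synthase allows the closest comparison, because its nuclear subunits were the best covered. The alpha subunit (LOC100197511), part of the catalytic head, had 124 counts in replicate A and 35 in replicate B, or 10.1 and 4.55 TPM, a ratio of 2.23 (1.52 to 3.35). The beta subunit (LOC100209130), which carries the catalytic sites, had 96 and 8 counts, or 8.18 and 1.08 TPM, a ratio of 7.55 (3.68 to 18.0). The gamma subunit (LOC100209701), the rotating shaft, had 35 counts and 5.43 TPM in replicate A and 0 counts in replicate B. With replicate B set to 3 counts its ratio was 7.34 (exact lower limit 5.66). In replicate A the mitochondrial *ATP6*, at 12.5 TPM, was close to the alpha subunit. In replicate B *ATP6* had 1 count and the alpha subunit 35. The interval for the ratio of *ATP6*, 5.72 to 1339, lies above that of the alpha subunit and overlaps that of the beta subunit. The lower limit of the nuclear gamma subunit, 5.66, lies above the interval of the alpha subunit as well. For the mitochondrial *ATP8*, with 6 and 0 counts, the lower limit was 0.706, which leaves its place beside the nuclear subunits open.

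For cytochrome c oxidase, few nuclear counts were at hand. The nuclear subunits 5B (LOC100211146) and 5A (LOC100207808), which belong to the shell around the core, had 10 and 8 counts in replicate A, and 1 and 3 in replicate B. Together these nuclear genes had 18 counts in replicate A and 4 in replicate B, while the 3 mitochondrial COX genes had 1863 and 14. In replicate A subunit 5B was at 3.83 TPM and 5A at 1.94 TPM, both below each of the mitochondrial core subunits. In replicate B, on 1 and 3 counts, 5B stood at 0.611 TPM, below *COX3*, and 5A at 1.16 TPM, between *COX3* and *COX1*. For the cytochrome b-c1 complex, the Rieske subunit (LOC100209435) and subunit 6 (LOC105845490) had 24 counts in replicate A and 6 in replicate B together, beside 55 and 0 for *CYTB*. The soluble electron carrier cytochrome c (LOC100209441) had 12 and 4 counts, or 3.11 and 1.65 TPM. For complex I, 7 nuclear genes had 57 and 8 counts, the highest by the mean of both libraries being LOC100207528, LOC100199273 and LOC100214281 with 2.30, 3.38 and 2.92 TPM in replicate A and 1.84, 0.598 and 0.423 TPM in replicate B. Every nuclear gene but 1 of the 20 had a lower TPM in replicate B, the exception being the ATP synthase subunit g (LOC100197245) on 4 and 3 counts. Most targets did so too: 1077 of the 1114 with 20 counts or more over both libraries were higher in replicate A.

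**Figure D4:**
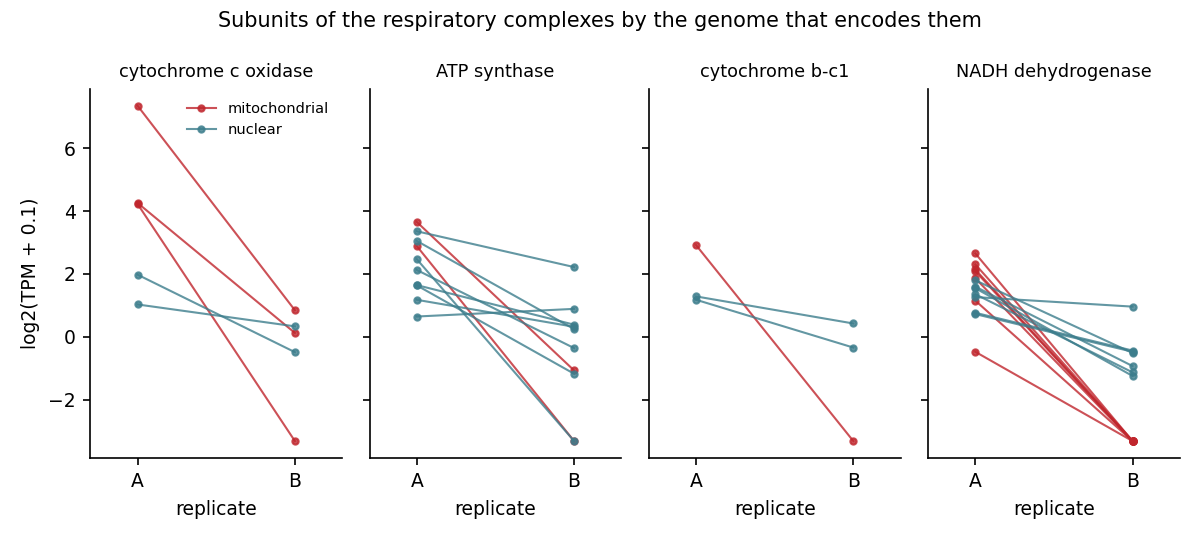
Levels as log2(TPM + 0.1) in replicate A and replicate B for subunits of cytochrome c oxidase, ATP synthase, the cytochrome b-c1 complex and NADH dehydrogenase, with 1 line per gene, red for mitochondrial and blue-green for nuclear genes. The mitochondrial lines start higher for cytochrome c oxidase and the cytochrome b-c1 complex in replicate A, and the lines that reach the bottom of the panels are genes with 0 counts in replicate B.

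Over the 2 libraries, the mRNA targets whose levels were closest to those of *COX1* were sought by the distance on log2(TPM + 0.1), without the 5 most abundant targets. The closest was XM_004205474, a target without a gene name, at a distance of 1.62, with 86.8 TPM in replicate A and 4.44 TPM in replicate B. Next came a mucin-5AC-like gene (LOC105848110) at a distance of 1.84, histone H3 (LOC100204347) at 1.85, an Hsp70-type chaperone gene (LOC100202286) at 1.95 and a mucin-2-like gene (LOC105850540) at 2.07. Their log2 ratios on this scale lay between 3.61 and 4.26, against 6.51 for *COX1*, so none of them had as large a difference between the libraries at its level. With 2 libraries such a likeness describes 2 numbers per gene. The mRNA targets with the highest ratios of all were far lower in level. LOC100207753, described as a protein with MAM and LDL-receptor class A domains, had 350 counts in replicate A and 1 in replicate B at 2.44 and 0.0110 TPM. The protocadherin Fat 4-like gene LOC100202388 had 248 and 1 counts at 6.22 and 0.0398 TPM. The other 3, which have no gene name in the annotation used, had 119 to 140 counts in replicate A, against no more than 1 in replicate B. Several of these targets had fractional counts, the mucins and the chaperone among them, so reads on them were shared with similar sequences.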

How the data were processed

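The 2 RNA-seq libraries of EV RNA belong to 1 condition. The authors trimmed the reads with Trim Galore and quantified them with kallisto against the transcripts annotated on the Hydra_RP_1.0 genome. The version of kallisto is not given in the sources used here. They deposited estimated counts, which are not normalized, and TPM values, which kallisto divided by effective length and scaled to the same total in each library, over all 25314 targets. Reads shared by targets are split by its model. A target's level thus depends on the few most abundant targets.

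Libraries were grouped by their source label, with 1 group. The genes and gene lists were chosen with earlier results of these data known. TPM was used as deposited. Ratios between libraries are of TPM, replicate A over replicate B, for targets with at least 20 estimated counts over both, and counts that round to 0 were set to a floor of 3 counts. Intervals are exact 95% Poisson, Clopper-Pearson or conditional binomial intervals of rounded counts, and those of ratios to other RNAs come from odds ratios. With 1 condition no test was made. Alternatives were other thresholds, minimum counts, scalings, pseudocounts of 0.1 and 1 TPM, folds of 2 and 10, and each library left out. Nuclear genes and EV markers were named by description from the 1264 genes given of the study's list and matched to a target by their pair of TPM values (relative tolerance 1e-05). The named genes were all mitochondrial protein genes, for each nuclear complex up to 3 with the highest mean TPM, and the 5 mRNA targets nearest to *COX1* and the 5 with the highest ratios; ATP synthase subunit g was named after its values were seen. Syntenin-1, also in the rule, was not matched to a single target. Ratios and intervals were tested on simulated data with Poisson error only. That checks the calculation, and not how the intervals hold with duplicated reads or spread between libraries. Python 3.11.15, numpy 2.4.6, pandas 2.3.3 and scipy 1.17.1 were used.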

Additional observations from a re-analysis of the deposited data

How the results depend on the processing

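No paired analysis was possible because there is a single group of 2 libraries. Of the 6 genes, 2 were detected when both libraries were required. With a library left out, the number detected was 2 (without replicate A) or 6, the share of *COX1* in their TPM 55.4% or 71.6%, beside a mean of 63.5%, and their share of mRNA-type counts 0.0430% or 1.37%. The share of *COX1* was 79.3% by counts, not per length. The median log2 ratio of 4.27 over the genes with at least 20 counts became 3.38 with TPM rescaled over mRNA targets, where the share of all targets past a fold of 4 was 47.2%. It became 6.24 and 3.33 with pseudocounts of 0.1 and 1 TPM (27.5% of all targets past a fold of 4 with the larger one), and 6.59 with at least 100 counts, which left 1 gene, *COX1*. All other alternatives of these results (24 of 32) stayed within 1.5 times for a count or within the spread for a value, though the spread in the share of mRNA-type counts is wider than its mean: that share was 0.277% with all mRNA targets in the denominator, against a mean of 0.704%. No ratio of the 5 genes that reached 20 counts turned round, but this was fixed beforehand and is no support. Their log2 ratios were 3.53 to 6.59, the rescalings shift each by -0.354 or -0.886, and a pseudocount keeps the direction. The ratio of *ATP8* was not followed through these alternatives. Its log2 ratio with replicate B set to 3 counts, 0.26, is smaller in size than the shifts of the rescalings, -0.354 and -0.886. Its direction thus stays unresolved. In replicate B, 15 counts on the 6 genes limit every comparison between them.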
